A study of Mus musculus with 11 samples.

Results

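The genes described here are 7 surface receptors of the SLAM family and its close relatives (Slamf1, Slamf6, Slamf7, Ly9, Cd48, Cd84 and Cd2) and a pair of adaptor proteins with an SH2 domain (Sh2d1a and Sh2d2a). They were taken by gene name from a table of raw read counts, in which 9 of 52636 genes carry these names, and all 9 were detected and passed the filter on low counts. RNA was sequenced from CD8 T cells of C57BL/6 mouse spleen in 11 libraries: 4 of CD45RBhi and 4 of CD45RBlo memory cells that bound an NP396 tetramer, and 3 of naive cells (CD44lo). The memory cells were sorted to above 99% purity in week 6 (days 42 to 45) after intraperitoneal infection with 200000 pfu of LCMV Armstrong, which causes an acute infection. The labels of the naive libraries repeat the infection text and carry a time entry of 6 to 8 weeks, whose meaning, such as age, is not stated. The labels give neither the age of the memory mice nor whether replicates came from separate animals. The p-values below therefore measure only how these libraries vary, which may be technical. The design asks how the CD45RBhi and CD45RBlo subsets differ from each other and from naive cells.

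SLAM receptors are immunoglobulin-type surface proteins of blood cells. Most of them bind a copy of themselves on a neighbouring cell, whereas CD48 is the partner of CD2 and of CD244 in mice. Apart from the lipid-anchored CD48 and from CD2, most of these receptors have tails with tyrosine motifs. The adaptor SAP (gene Sh2d1a) binds these motifs and brings the kinase FYN. Without SAP the same motifs can recruit inhibitory phosphatases. In people, loss of SAP causes X-linked lymphoproliferative disease, in which T and NK cells control Epstein-Barr virus poorly.

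Of the members, 6 lie side by side on mouse chromosome 1 (GRCm38, GENCODE M21 gene bounds), in a cluster of 364.5 kb. Ly9 occupies chr1:171588624-171607410 and Slamf7 chr1:171632403-171653035, both on the minus strand. Cd48 (chr1:171682009-171705258), Slamf1 (chr1:171767127-171801184), Cd84 (chr1:171839697-171890718) and Slamf6 (chr1:171917515-171953170) follow on the plus strand. Cd2 lies outside the cluster at chr3:101275899-101287939 (minus), Sh2d2a at chr3:87846755-87855722 (plus) and Sh2d1a at chrX:42502453-42529330 (plus). Reads were counted over whole genes, so the values do not separate splice forms. RefSeq promoter windows (GRCm38.p6, from 250 bases before to 50 after the RefSeq start) were at hand for 5 of the 9 members. RefSeq starts can differ from the GENCODE bounds above. The Slamf7 window lies inside the bounds of its gene, and the Slamf6 window ends before those of its gene begin. The windows of Slamf7, Cd48 and Slamf6 are shown. Of the cluster, these genes had the largest, the next largest and the only uncalled difference from naive cells. Capitals mark matches to the motifs searched.
Slamf7, chr1:171648950-171649249, minus strand: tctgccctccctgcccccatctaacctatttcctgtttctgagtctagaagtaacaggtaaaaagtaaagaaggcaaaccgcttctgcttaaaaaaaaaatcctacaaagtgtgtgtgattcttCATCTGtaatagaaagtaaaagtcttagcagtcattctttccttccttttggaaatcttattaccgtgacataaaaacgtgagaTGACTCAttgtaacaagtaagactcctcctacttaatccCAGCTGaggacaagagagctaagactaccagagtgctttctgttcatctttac
Cd48, chr1:171681742-171682041, plus strand: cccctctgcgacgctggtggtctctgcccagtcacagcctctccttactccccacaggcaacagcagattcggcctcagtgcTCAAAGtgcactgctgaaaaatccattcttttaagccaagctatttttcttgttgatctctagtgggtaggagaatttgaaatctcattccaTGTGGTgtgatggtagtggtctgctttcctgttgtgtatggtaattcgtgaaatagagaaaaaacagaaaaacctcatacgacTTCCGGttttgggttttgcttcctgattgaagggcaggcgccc
Slamf6, chr1:171917212-171917511, plus strand: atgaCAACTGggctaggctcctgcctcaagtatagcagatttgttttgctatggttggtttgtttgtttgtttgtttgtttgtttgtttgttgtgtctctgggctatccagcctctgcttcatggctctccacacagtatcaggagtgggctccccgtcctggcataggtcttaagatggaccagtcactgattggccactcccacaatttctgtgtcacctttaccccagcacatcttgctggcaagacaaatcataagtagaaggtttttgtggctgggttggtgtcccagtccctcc
On either strand, the letters searched were TGTGGT (RUNX), AGGTGT (T-box), TGANTCA (AP-1), CTTTGA (TCF/LEF), CCGGAA (ETS) and CANCTG (E-box). The Slamf7 window held 1 AP-1 match and 2 E-box matches, and the Cd48 window held 1 match each to RUNX, TCF/LEF and ETS. The Slamf6 window held 1 E-box match, far upstream of the start. Of 32851 mouse promoter windows of this length, 7.81% held the AP-1 letters, 51.4% the E-box, 16.8% the RUNX, 16.0% the TCF/LEF, 14.9% the ETS and 13.7% the T-box letters. Over the 5 member windows, the RUNX, T-box and AP-1 letters were each in 2, the TCF/LEF and ETS letters each in 1 and the E-box letters in 4. The T-box letters were in the Slamf1 and Cd84 windows. In the Slamf1 window that match overlaps an E-box match. These matches describe the letters and do not show binding.

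The libraries held 18.0 to 23.2 M counts, so that a count of 0 allows up to 0.130 to 0.166 CPM (counts per M of library total, which for the levels below was scaled by TMM), which covers counting error only. Summed CD8 T cell markers lay between 7304 and 8375 CPM in CD45RBhi, 6776 and 8195 CPM in CD45RBlo and 6999 and 7458 CPM in naive libraries. Summed B cell markers (7 genes) were lower in memory, at 16.2 to 37.0 CPM in CD45RBhi and 19.1 to 29.4 CPM in CD45RBlo against 106 to 124 CPM in naive libraries. Pax5 was at 0 in every memory library, whereas Cd22 went the other way, at 5.92 to 10.6 CPM in CD45RBhi and 9.21 to 18.5 CPM in CD45RBlo against 0.984 to 2.83 CPM in naive libraries. Summed erythroid and platelet markers reached 1.62 CPM in CD45RBhi and 24.7 CPM in CD45RBlo libraries, against 237 to 522 CPM in naive ones. Summed dendritic cell markers (5 genes) were at 8.05 to 13.1 CPM in CD45RBhi and 9.67 to 14.7 CPM in CD45RBlo, against 3.10 to 4.38 CPM in naive libraries, and that difference lay in Xcr1 (6.71 to 11.03 CPM in CD45RBhi and 7.94 to 12.7 CPM in CD45RBlo, against 1.03 to 1.24 CPM in naive libraries). Siglech was at 0 in all memory libraries. Macrophage, monocyte and neutrophil markers (7 genes) summed to 28.3 to 39.1 CPM in CD45RBhi, 24.9 to 33.6 CPM in CD45RBlo and 27.7 to 49.0 CPM in naive libraries, but these genes differed in opposite directions. Cd68 was at 27.2 to 38.6 CPM in CD45RBhi and 22.7 to 29.9 CPM in CD45RBlo against 2.75 to 4.56 CPM in naive libraries. Lyz2 was at 0.0497 to 0.941 CPM in CD45RBhi and 0.145 to 1.98 CPM in CD45RBlo against 11.3 to 23.2 CPM in naive libraries, and Csf1r and Adgre1 were also lower in every memory library than in any naive one. The part of these markers in the values below was not tested.

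Most of the family was higher in memory than in naive cells. Against naive, 8 of the 9 members rose in CD45RBhi and the same 8 rose in CD45RBlo cells (edgeR's quasi-likelihood test, Benjamini-Hochberg adjusted p under 0.05 over 13735 genes). Across all genes tested, 22.3% rose in CD45RBhi and 22.4% in CD45RBlo. None of the members fell, whereas 19.1% of genes fell in CD45RBhi and 19.8% in CD45RBlo. The median log2 fold change of the 9 members was 1.00 in CD45RBhi and 0.97 in CD45RBlo, against a median of -0.01 over all genes in both comparisons. The ranges of memory and naive libraries were apart for the same 8 members, all higher in memory, as for 24.2% of genes in CD45RBhi and 25.2% in CD45RBlo. Both comparisons use the same 3 naive libraries. Slamf6 was the exception. In bulk RNA, fewer cells of a type and less RNA per cell cannot be told apart.

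**Figure D1:**
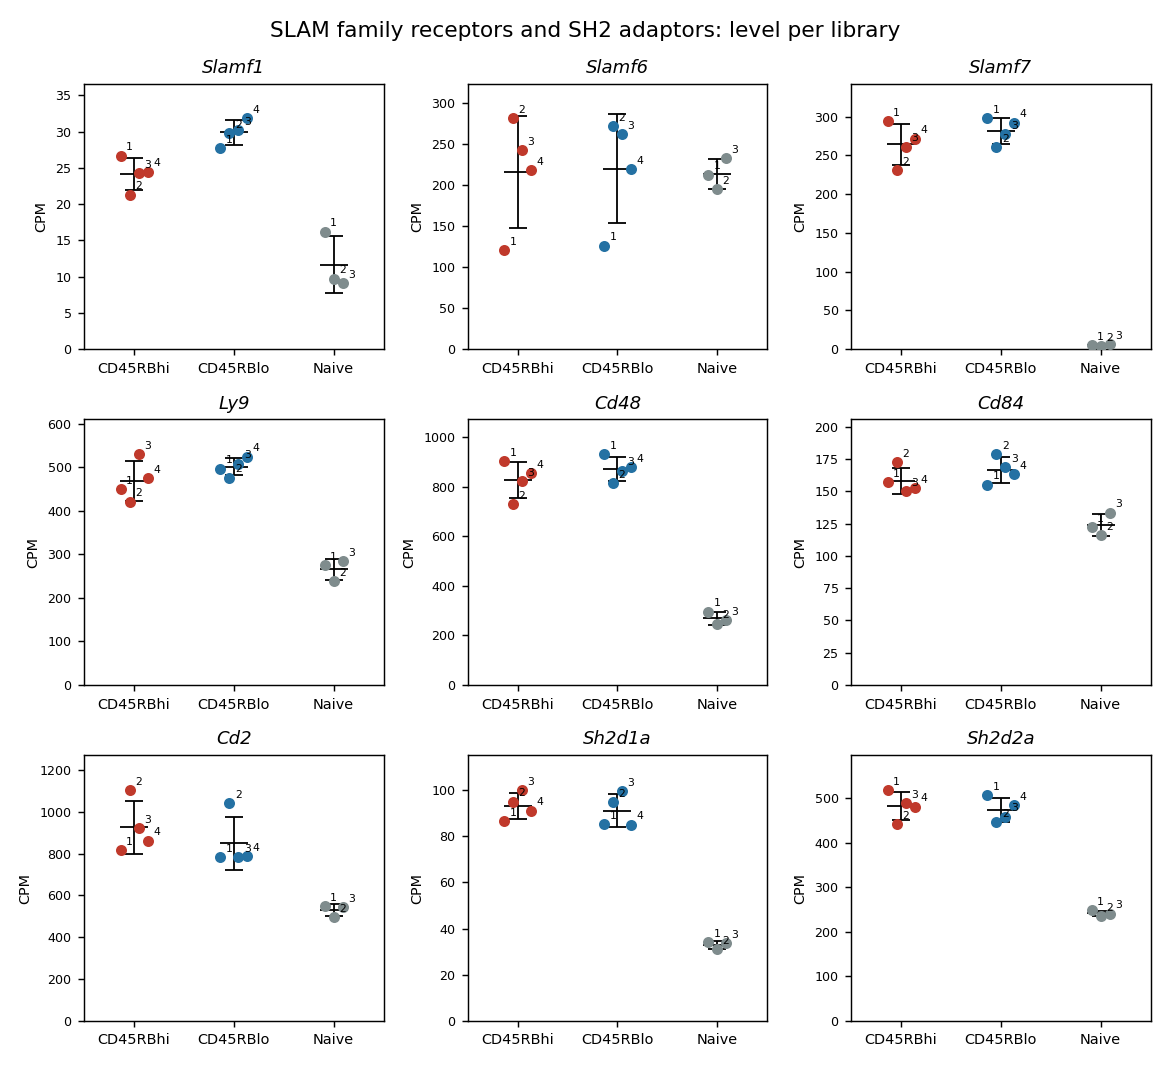
CPM of the 9 members in each library, one panel per gene with its own axis, points labelled with the replicate number, and mean ± SD beside them (CD45RBhi, CD45RBlo, naive). The memory groups lie above naive in 8 panels, and in the Slamf6 panel the libraries numbered 1 stand below the rest of both memory groups.

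Slamf7 (ENSMUSG00000038179), a receptor known from NK cells, cytotoxic T cells and plasma cells, had the largest difference of the 9. It was at 294, 231, 261 and 271 CPM in CD45RBhi libraries 1 to 4, at 298, 260.4, 278 and 292 CPM in CD45RBlo libraries 1 to 4 and at 4.79, 3.68 and 6.25 CPM in naive libraries 1 to 3. Every memory library was far above every naive one, and the memory groups overlapped. The log2 fold change was 5.75 ± 0.169 (SE, 53.7-fold, adjusted p = 5.56e-11) in CD45RBhi and 5.84 ± 0.170 (57.3-fold, adjusted p = 4.96e-11) in CD45RBlo. The naive level rests on 71 to 127 counts per library, above the limit for a count of 0. Among all genes, the Slamf7 fold change lay at percentile 98.3 in CD45RBhi and 98.1 in CD45RBlo.

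Other cell types that use Slamf7 were read from their markers. Summed NK markers (4 genes) were at 266 to 437 CPM in CD45RBhi and 272 to 420.2 CPM in CD45RBlo, against 38.0 to 47.5 CPM in naive libraries. Among them, Ncr1 had 0 to 2 counts in every library. Klrb1c ran from 117 to 245 CPM in CD45RBhi and 129 to 229 CPM in CD45RBlo libraries, against 4 to 9 counts in naive ones. Eomes was at 149 to 191 CPM in CD45RBhi and 142 to 189 CPM in CD45RBlo, against 37.8 to 47.0 CPM in naive libraries. Klra8 was at 0.0523 to 1.25 CPM in CD45RBhi and 0.534 to 1.92 CPM in CD45RBlo, and at 0 in naive libraries. Summed plasma cell markers (4 genes) were lower in memory, at 1.19 to 2.77 CPM in CD45RBhi and 0.340 to 1.33 CPM in CD45RBlo against 4.25 to 5.29 CPM in naive libraries, and Tnfrsf17 was at 0 in all memory libraries. Part of Slamf7, 423 exon bases or 9.24%, is shared with Gm37787 on the opposite strand, and strandedness of the counting is not given. Gm37787 itself had 18 to 34 counts in CD45RBhi, 14 to 33 in CD45RBlo and 0 in naive libraries.

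Cd48, a lipid-anchored receptor and the partner of CD2 and CD244, had 903, 729, 823 and 855 CPM in CD45RBhi libraries 1 to 4, against 296, 247 and 263 CPM in naive libraries 1 to 3. In CD45RBlo libraries 1 to 4 it had 932, 814, 865 and 879 CPM. Both memory groups lay wholly above naive. It rose by 1.62 ± 0.0933 log2 units in CD45RBhi (3.08-fold, adjusted p = 2.83e-08) and by 1.70 ± 0.0936 in CD45RBlo (3.25-fold, adjusted p = 1.69e-08). Cd2, the adhesion receptor that binds CD48 in mice, was at 817, 1104, 922 and 862 CPM in CD45RBhi, 782, 1040.3, 784 and 787 CPM in CD45RBlo and 547, 495 and 543 CPM in naive libraries. Library 2 was the highest of both memory groups, and neither group overlapped naive. Cd2 rose by 0.81 ± 0.124 (adjusted p = 0.000198) in CD45RBhi and 0.68 ± 0.123 (adjusted p = 0.000668) in CD45RBlo. Cd244, the other CD48 partner and not a member, was at 7.11 to 9.67 CPM in CD45RBhi, 8.43 to 13.0 CPM in CD45RBlo and averaged 0.671 CPM in naive libraries. It rose by 3.66 ± 0.243 (adjusted p = 1.06e-07) in CD45RBhi and 4.08 ± 0.245 (adjusted p = 3.88e-08) in CD45RBlo.

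Of the remaining receptors, Ly9 and Slamf1 rose in both memory groups and Cd84 rose least. Ly9 (CD229), which binds itself on neighbouring cells, averaged 469 ± 46.3 CPM in CD45RBhi, 501 ± 20.1 CPM in CD45RBlo (SD, n = 4 each) and 266 ± 24.3 CPM in naive cells (n = 3). It was 0.82 ± 0.0920 (adjusted p = 1.47e-05) higher in CD45RBhi and 0.91 ± 0.0923 (adjusted p = 5.01e-06) higher in CD45RBlo than in naive, on the log2 scale. Slamf1 (CD150), known as a costimulatory receptor of T cells, was the least abundant receptor of the memory groups. It had 26.7, 21.3, 24.3 and 24.5 CPM in CD45RBhi, 27.7, 29.8, 30.2 and 31.9 CPM in CD45RBlo, and 16.2, 9.74 and 9.10 CPM in naive libraries. Naive library 1 stood above the other 2 and still below every memory library. Slamf1 rose by 1.05 ± 0.180 (adjusted p = 0.000491) in CD45RBhi and 1.35 ± 0.182 (adjusted p = 6.04e-05) in CD45RBlo. Cd84, another receptor that binds itself, rose by 0.35 ± 0.0841 (adjusted p = 0.00473) in CD45RBhi and 0.43 ± 0.0842 (adjusted p = 0.00126) in CD45RBlo. It averaged 158 ± 10.2 CPM in CD45RBhi, 166 ± 9.99 CPM in CD45RBlo and 124 ± 8.83 CPM in naive cells. With libraries scaled by total count alone, its CD45RBhi difference was 0.20 and no longer passed (adjusted p = 0.0963, against 0.000609 to 0.0963 over 18 alternatives).

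Slamf6 (Ly108), a receptor often used to mark progenitor-like T cells, did not pass the test. It was at 121, 282, 243 and 218 CPM in CD45RBhi libraries 1 to 4, at 126, 272, 262 and 219.5 CPM in CD45RBlo libraries 1 to 4, and at 213, 195 and 233 CPM in naive libraries 1 to 3. Library 1 of each memory group lay below every naive library, and libraries 2 and 3 of each lay above every naive library. The log2 difference from naive was 0.02 (95% interval -0.57 to 0.60, adjusted p = 0.969) in CD45RBhi and 0.04 (-0.55 to 0.63, adjusted p = 0.918) in CD45RBlo. Without both memory libraries numbered 1, an alternative added after the values were seen, the differences were 0.21 ± 0.116 (adjusted p = 0.164, against 0.164 to 0.99 over 18 alternatives) in CD45RBhi and 0.24 ± 0.116 (adjusted p = 0.129, against 0.129 to 0.977) in CD45RBlo. The data do not show that memory and naive levels are equal.

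The adaptors rose with the receptors. Sh2d1a (SAP) was at 86.6, 94.9, 100.1 and 91.0 CPM in CD45RBhi libraries 1 to 4, at 85.2, 94.9, 99.6 and 84.9 CPM in CD45RBlo libraries 1 to 4, and at 34.1, 30.9 and 33.7 CPM in naive libraries 1 to 3. All 8 memory libraries were above all naive ones. It rose by 1.50 ± 0.0948 (adjusted p = 6.67e-08) in CD45RBhi and 1.47 ± 0.0948 (adjusted p = 7.34e-08) in CD45RBlo. Of its exon bases, 26.6% are shared with Tenm1 on the opposite strand, which had 0 to 7 counts in CD45RBhi, 0 to 6 in CD45RBlo and 0 in naive libraries. Sh2d2a (TSAd), an adaptor of LCK, averaged 483 ± 31.7 CPM in CD45RBhi, 474 ± 26.9 CPM in CD45RBlo and 241.5 ± 6.18 CPM in naive cells. It rose by 1.00 ± 0.0765 (adjusted p = 4e-07) in CD45RBhi and 0.97 ± 0.0764 (adjusted p = 4.86e-07) in CD45RBlo.

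**Figure D2:**
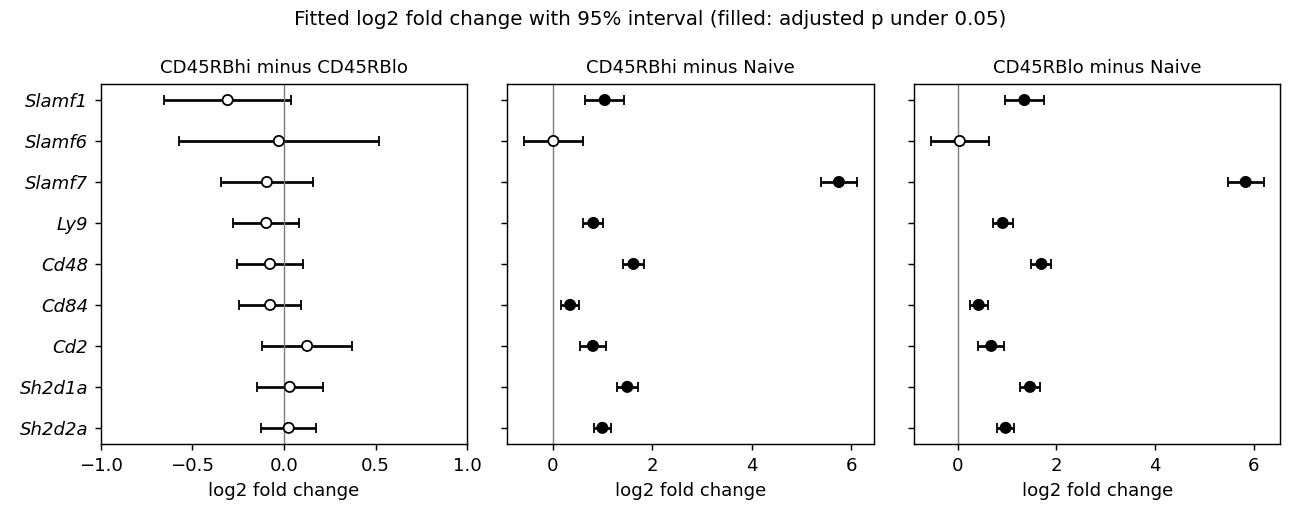
Log2 fold changes of the 9 members with 95% intervals, for CD45RBhi against naive, CD45RBlo against naive and CD45RBhi against CD45RBlo, filled where the adjusted p was under 0.05. All but Slamf6 are filled on the right of 0 in both naive comparisons, and none is filled between the memory groups. The panels have different x scales.

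Levels were compared between genes as CPM per kb of exon. In CD45RBhi cells Cd48 was highest at 696 ± 61.7, with a range that overlapped that of Cd2 at 532 ± 72.5. Ly9 followed at 142 ± 14.0, then Sh2d2a, Slamf7, Cd84, Slamf6 and Sh2d1a, and Slamf1 was lowest at 3.93 ± 0.358. The CD45RBlo order was the same, with Cd48 (734 ± 40.9) apart from Cd2 (487 ± 73.6). In both memory groups Cd84, Slamf6 and Sh2d1a formed neighbours whose ranges overlapped. In naive cells Cd2 (304 ± 16.6) stood above Cd48 (226 ± 20.8), Cd84 and Slamf6 overlapped, and Slamf7 was lowest at 1.07 ± 0.281.

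Summed over the 7 receptors, the level was 1476 ± 11.3 CPM per kb in CD45RBhi, 1486 ± 40.7 in CD45RBlo and 652 ± 44.1 in naive cells. The ratio to naive was 2.26 in CD45RBhi and 2.28 in CD45RBlo, with every memory library above every naive one. The exact two-sided permutation p was 0.0571 for each, the smallest this design can give (0.0857 adjusted over 3 comparisons). CD45RBhi and CD45RBlo sums differed by -9.35 CPM per kb (exact permutation p = 0.8, adjusted 0.8). Cd48 made up 47.2% ± 4.40 of the sum in CD45RBhi, 49.4% ± 3.52 in CD45RBlo and 34.6% ± 1.41 in naive cells. Cd2 made up 36.0% ± 4.75 in CD45RBhi, 32.7% ± 4.05 in CD45RBlo and 46.6% ± 0.828 in naive cells. The Slamf7 share was 3.91% ± 0.406 in CD45RBhi, 4.15% ± 0.317 in CD45RBlo and 0.163% ± 0.0374 in naive cells. Slamf6 made up 1.35% ± 0.424 in CD45RBhi, 1.37% ± 0.410 in CD45RBlo and 3.02% ± 0.195 in naive cells. Shares were not tested.

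**Figure D3:**
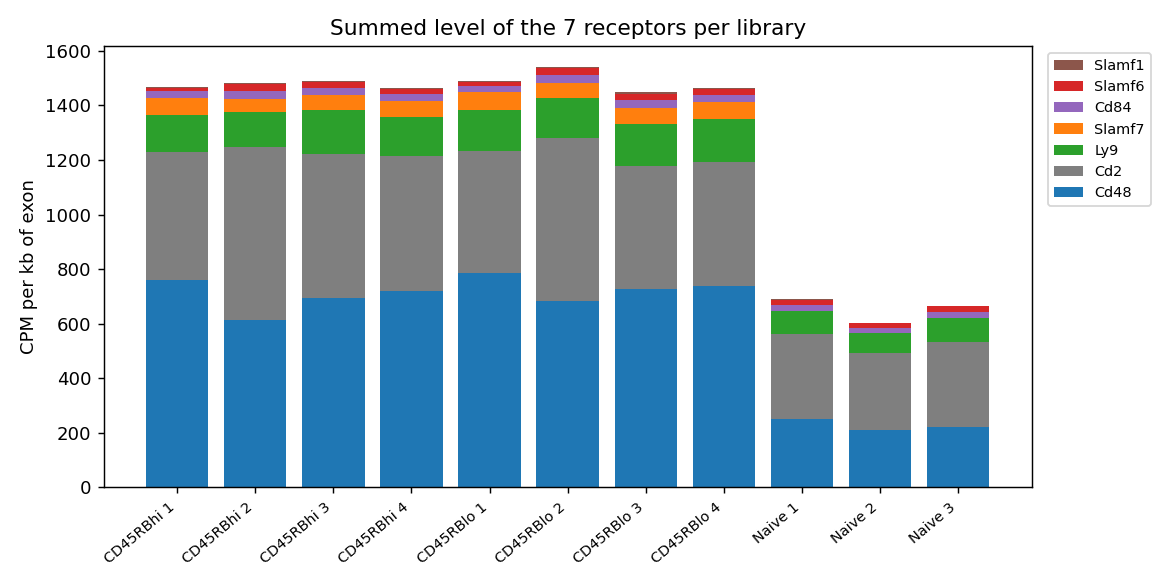
Stacked level of the 7 receptors in each library, in CPM per kb of exon (CD45RBhi, CD45RBlo, naive). Memory bars end between 1448 and 1541 and naive bars between 603 and 689, and Cd48 is the largest block in every memory bar but that of CD45RBhi library 2, while Cd2 is the largest in naive bars.

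Between the memory subsets, no member passed the test (0 of 9, against 0.124% of all genes). None had an unadjusted p under 0.05, against 9% of all genes, and DESeq2 also called 0. The median log2 difference of CD45RBhi from CD45RBlo was -0.08 over the members. The member with the clearest split was Slamf1, whose values are given above. Each CD45RBhi library was below each CD45RBlo library, which was so for 1 of the 9 members and, in either direction, for 4.99% of all genes. The log2 difference was -0.31 ± 0.160 (95% interval -0.65 to 0.04, adjusted p = 0.6). The 95% interval was -0.35 to 0.16 for Slamf7, -0.25 to 0.10 for Cd48, -0.12 to 0.37 for Cd2 and -0.57 to 0.52 for Slamf6.

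Same-numbered memory libraries deviated together, so the numbers were also used as a block over the 8 memory libraries. In that fit 707 genes passed, 5.59% of 12637, against 17 genes without the block, and again 0 of 9 members. Slamf1 had -0.31 ± 0.0961 (unadjusted p = 0.00722, adjusted p = 0.0824) and was lower in CD45RBhi in 4 of 4 pairs. Cd2 had 0.13 ± 0.0486 (unadjusted p = 0.0196, adjusted p = 0.144) and was higher in CD45RBhi in 4 of 4 pairs. These were the only members with an unadjusted p under 0.05 there. Slamf7 and Cd48 were lower in CD45RBhi in 4 of 4 pairs and Sh2d1a was higher in 4 of 4. Thus 5 of 9 members kept 1 direction in every pair, against 29% of all genes. Sh2d1a is among them by near ties, with differences of 0.0012 and 0.0072 log2 units in pairs 2 and 3. The blocked difference of Slamf6 was -0.03 with an interval of -0.15 to 0.09, narrower than without the block.

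Slamf6 varied with the replicate number more than with the subset. Its mean over the same-numbered pair was 123 CPM for number 1, 277 CPM for number 2, 253 CPM for number 3 and 219 CPM for number 4, a ratio of 2.24 between highest and lowest. That ratio lay at percentile 97.4 of the 8348 genes of at least 10 CPM, whose median was 1.26. The number accounted for 99.4% of the Slamf6 variance among memory libraries and the subset for 0.138%, against medians of 66.8% and 10.1% over these genes. Library 1 lay 1.81 times below the lowest of the other 3 in CD45RBhi and 1.74 times in CD45RBlo. As large a gap in both groups was seen in 13 of the 8348 genes (0.156%), Slamf6 among them. The cut-off for that count was the gap of Slamf6 itself. Library 1 was the lowest in both memory groups, by any gap, for 1693 of the 8348 genes (20.3%). Summed B cell markers were also highest in library 1 of each group, at 37.0 CPM in CD45RBhi and 29.4 CPM in CD45RBlo, against 16.2 to 27.6 CPM in the other memory libraries. In CD45RBlo library 1, Cd22 alone gave 18.5 CPM of that sum. Cd79a, Cd79b and Cd74 were higher in CD45RBlo library 2 than in CD45RBlo library 1. Library 1 of each group also had the highest summed NK markers, at 437 CPM in CD45RBhi and 420.2 CPM in CD45RBlo. The other memory libraries had 266 to 345 CPM. Nearly all of the library 1 sums came from Klrb1c (245 CPM in CD45RBhi, 229 CPM in CD45RBlo) and Eomes (191 and 189 CPM). Ncr1 had 0 to 2 counts. Summed dendritic cell markers were highest in library 1 too, at 13.1 CPM in CD45RBhi and 14.7 CPM in CD45RBlo, against 8.05 to 12.0 CPM. Most of that was Xcr1 (11.03 and 12.7 CPM), and Flt3 and Siglech were at 0 in both. Erythroid and platelet markers were at 0.752 CPM in CD45RBhi library 1 and 24.7 CPM in CD45RBlo library 1. The part of all these markers in the Slamf6 values was not tested. Cd2 also moved with the number, at 1072 CPM for number 2 against 799 to 853 CPM for the others. Its ratio of 1.34 lay only at percentile 64.4 of the 8348 genes. The number accounted for 84.3% of its variance, against 91.9% for Sh2d1a and 89.6% for Sh2d2a.

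**Figure D4:**
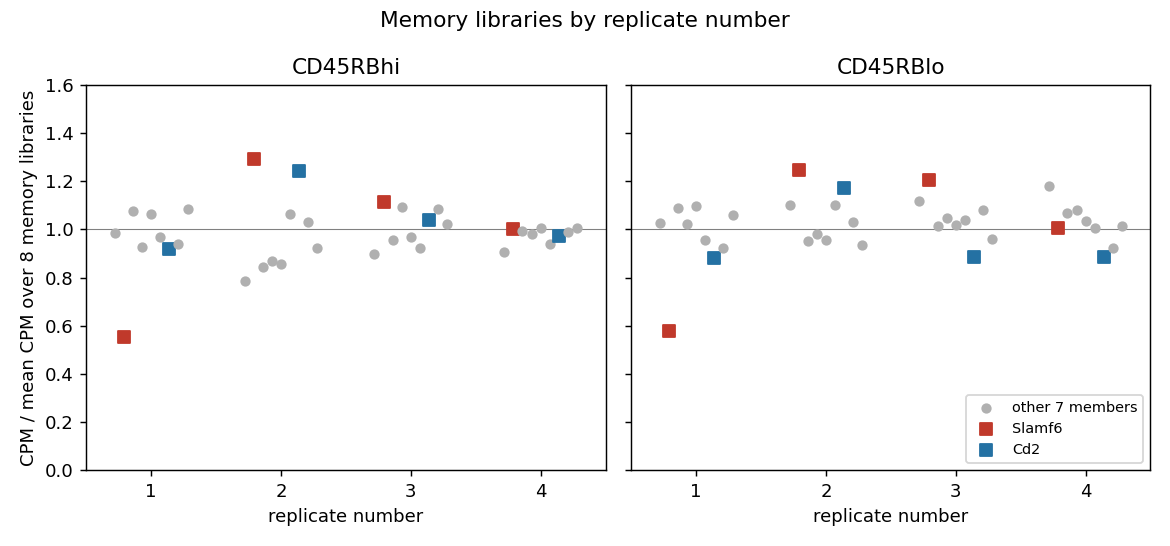
CPM of each member divided by its mean over the 8 memory libraries, by replicate number, in CD45RBhi (left) and CD45RBlo (right). Slamf6 (red) is lowest at number 1 and highest at number 2 in both subsets, Cd2 (blue) is highest at number 2, and the other 7 members (grey) are shown for comparison.

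The genes most like each member over the 11 libraries were found by the root mean square difference of centred log2 CPM. This measure takes in the difference between memory and naive libraries, so genes with a similar rise lie close to each other. For Slamf7 the nearest was Tbx21 (T-bet, a transcription factor of effector cells), at 0.0911. Tbx21 averaged 843 CPM in CD45RBhi, 867 CPM in CD45RBlo and 15.1 CPM in naive cells. Next came ENSMUSG00000109713, a gene with no symbol in the table, at 0.197, with 111 to 135 counts in CD45RBhi, 142 to 171 in CD45RBlo and 0 to 1 in naive libraries. Perp, a membrane protein of the p53 response, stood at 0.208 and had 88 to 128 counts in CD45RBhi, 91 to 106 in CD45RBlo and 0 in naive libraries. For Slamf6 the nearest were Serpinb6a (0.133), Isoc2b (0.143) and Acap1 (0.152). All 3 were lowest in library 1 of each memory group, as Slamf6 was, which their choice by likeness to Slamf6 favours. The same was so for 20.3% of genes of at least 10 CPM. Acap1 had 284 CPM in CD45RBhi library 1 and 318 CPM in CD45RBlo library 1, against 410 to 556 CPM in the other memory libraries. For Sh2d1a they were Ube2g2 (0.0627), Txndc5 (0.0956) and Fyn (0.109), the kinase that SAP brings to the receptors. For Cd48 they were AW112010 (0.0853), the integrin chain Itgb2 (0.0991) and Ank (0.108). Rab8a (0.0581), Dhrs7 (0.0734) and Gramd3 (0.0815) were nearest to Cd2, and Slfn9 (0.0715), Mapkapk3 (0.0805) and Atp8b4 (0.0943) to Ly9. Zfp954 (0.0528), Map1lc3b (0.0534) and Vhl (0.0605) were nearest to Cd84, Sppl3 (0.0630), Cst7 (0.0693) and Syngr2 (0.0701) to Sh2d2a, and Pacsin2 (0.187), Lax1 (0.192) and Btd (0.197) to Slamf1.

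Genes that act with these receptors were read from a list of 37, of which 32 passed the filter. Those said to rise or fall passed the same test. In CD45RBhi 14 rose and 5 fell against naive, and in CD45RBlo 14 rose and 4 fell. Over all genes 22.3% rose and 19.1% fell in CD45RBhi, and 22.4% rose and 19.8% fell in CD45RBlo, so the falls of the list were not above the background. With libraries scaled by total count alone the CD45RBlo split was 11 higher and 7 lower. Their median log2 fold change was 0.20 in CD45RBhi and 0.22 in CD45RBlo. Fyn averaged 1233 CPM in CD45RBhi, 1291 CPM in CD45RBlo and 489 CPM in naive cells, and rose by 1.33 ± 0.0749 (adjusted p = 2.22e-08) in CD45RBhi and 1.40 ± 0.0751 (adjusted p = 1.28e-08) in CD45RBlo. Lck, the kinase that acts at the T cell receptor, also rose, by 0.54 in CD45RBhi and 0.52 in CD45RBlo. Txk, a kinase of the TEC family, fell by 0.56 in CD45RBhi and 0.59 in CD45RBlo.

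Among the phosphatases and RasGAP-linked brakes, 3 of 6 rose and 1 fell in each memory group. For comparison, 22.3% of all genes rose and 19.1% fell in CD45RBhi, and 22.4% rose and 19.8% fell in CD45RBlo. The 1 fall was thus not above the background. Ptpn11 (SHP-2) averaged 92.5 CPM in CD45RBhi, 117 CPM in CD45RBlo and 37.4 CPM in naive cells, with log2 fold changes of 1.31 in CD45RBhi and 1.64 in CD45RBlo. Inpp5d (SHIP-1) rose by 0.69 in CD45RBhi and 0.75 in CD45RBlo, and Dok2, an adaptor that recruits RasGAP, by 1.69 in CD45RBhi and 1.71 in CD45RBlo. Ptpn6 (SHP-1) fell by 0.30 in CD45RBhi and 0.28 in CD45RBlo. Of 13 adaptors and effectors, 6 rose and 1 fell in CD45RBhi and 5 rose and 0 fell in CD45RBlo. Lcp2 (SLP-76) rose by 0.53 in CD45RBhi and 0.47 in CD45RBlo, and Plcg1, a phospholipase, fell by 0.73 in CD45RBhi, while its CD45RBlo difference of -0.39 did not pass (adjusted p = 0.14). Of 4 partners of the CD2 tail, 1 rose and 1 fell in each memory group, near the shares over all genes. Pstpip1 was higher by 0.42 in CD45RBhi and 0.62 in CD45RBlo, and Cd2ap, a scaffold protein, fell by 1.33 in CD45RBhi and 1.55 in CD45RBlo. Gata3, a transcription factor, rose by 1.19 in CD45RBhi and 0.94 in CD45RBlo.

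Other family genes were at or near the limit of detection. Slamf9 had 0 counts in all libraries. Slamf8 had 0 counts in CD45RBhi, 0 to 5 in CD45RBlo and 1 to 12 in naive libraries. Sh2d1b1 (EAT-2), an adaptor of NK cells, had 0 counts in memory libraries and 5 to 7 in naive ones.

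Between the memory subsets none of the 32 genes passed. In the same edgeR test 5 of them had an unadjusted p under 0.05, as did 9% of all genes. DESeq2 called 1 of them, against 142 of all 13735 genes. With the replicate block 4 passed, 12.5% of the list against 5.59% of all genes. Ptpn11 was lower in CD45RBhi by 0.33 ± 0.0745 (log2, adjusted p = 0.0244), Plcg1 by 0.36 ± 0.0590 (adjusted p = 0.0056) and the adaptor Sh3bp2 by 0.49 ± 0.116 (adjusted p = 0.0293). Gata3 was higher by 0.26 ± 0.0642 (adjusted p = 0.0376). Each moved in its direction in 4 of 4 pairs, and none passed without the block. The blocked difference of Cd244 was -0.41 ± 0.146 (adjusted p = 0.125).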

How the data were processed

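Sorted spleen CD8 T cells were sequenced in 11 libraries, all of which were used. The authors deposited raw counts per gene, without scaling. Per the submitters' processing notes, SAMtools, featureCounts and DESeq2 were used on mm10 (GRCm38). The sources used here name no aligner, annotation release or strandedness.

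Low genes were removed by filterByExpr at a minimum count of 10, leaving 13735, and TMM scaling was applied. All 3 groups entered 1 edgeR quasi-likelihood fit without covariates. Two-sided p-values were Benjamini-Hochberg adjusted over every gene tested, and 0.05 was the threshold. Variation between replicates was 18.7% (BCV). No replicate pair was identical. Levels are CPM from TMM-scaled library sizes, and likeness used log2 CPM with a prior count of 2. Positions and exon lengths are those of GENCODE M21 (GRCm38), where 52403 identifiers were found. It may differ from the annotation behind the counts. Fits were tested on simulated data. Software was R 4.3.3, edgeR 4.0.16, DESeq2 1.42.0 and matplotlib 3.10.9.

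It was checked whether replicate numbers pair libraries. Deviations from group means correlated at 0.191 to 0.452 across genes for same-numbered CD45RBhi and CD45RBlo libraries, and at -0.331 to 0.0284 for other numbers. This pairing is read from the data, since the labels state none. Memory and naive libraries of 1 number correlated at -0.101 to 0.0565 and were left unpaired in the main fit. The block fit between the subsets tested 12637 genes. As an alternative, a block by number was also run for the comparisons with naive, over 13735 genes. That fit pairs naive with memory libraries, a pairing that these correlations do not show.

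The members and lists were chosen with earlier results of these data known. By rule, all members were named, with up to 4 listed genes per comparison by smallest p and the 3 genes most like each member. Lck, Txk, Inpp5d, Ptpn6, Lcp2, Plcg1, Pstpip1, Cd2ap, Gata3 and Sh3bp2 were named after their values were seen. Alternatives were DESeq2, other scalings and filters, left-out libraries and the block.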

Additional observations from a re-analysis of the deposited data

Results flagged for a closer look

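Within groups of 4 libraries, 38 sets of values were examined for a single library far from the others (Dixon's criterion), and chance marks about 1 in 20 such groups. Cd2 in CD45RBlo library 2, at 1040.3 CPM, was the highest, and its gap to the next library made up 0.979 of the group's range. Ptpn11 in CD45RBhi library 1, at 84.3 CPM, was the lowest, with a gap of 0.858 of the range.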

How the results depend on the processing

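The count of members that passed was 8 in each memory comparison with naive under every left-out library and every alternative run except scaling by total count alone, where Cd84 was lost in CD45RBhi (0.20), and it was 0 between the subsets under all alternatives. Total-count scaling moved the median log2 fold change of all genes to -0.16 in CD45RBhi and -0.14 in CD45RBlo, and its split of all genes was 2301 higher and 3724 lower (CD45RBhi) and 2356 and 3609 (CD45RBlo), against 3064 and 2630, and 3072 and 2722, with TMM. Slamf6, never past the threshold, turned to -0.13 in CD45RBhi and -0.087 in CD45RBlo under total-count scaling. With the replicate block run over memory and naive libraries, Slamf6 turned to -0.099 in CD45RBhi and -0.069 in CD45RBlo. That block pairs naive with memory libraries by number, a pairing that the data do not show. Leaving out 1 library gave Slamf6 -0.14 to 0.21 in CD45RBhi, -0.075 to 0.23 in CD45RBlo and -0.22 to 0.17 between the subsets. Between the subsets Sh2d1a ranged from -0.0049 to 0.076 and Sh2d2a from -0.011 to 0.066. Without naive library 1, Slamf1 rose by 1.36 in CD45RBhi and 1.67 in CD45RBlo. Genes called between the subsets numbered 142 with DESeq2, 4 with only the groups compared, 707 with the replicate block (344, 667, 167 and 300 without numbers 1, 2, 3 and 4) and 6 to 15 without one library, against 17. Listed partner genes called numbered 1 with DESeq2 and 4 with the block (1 to 3 without one number), against 0. The replicate block changed no member's call. The cause was not tested.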

Other observations

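Inside the SLAM cluster, the antisense gene Gm37065 overlaps Slamf6 on the opposite strand and shares 0 exon bases with it. Gm37065 had 30 to 37 counts in CD45RBhi, 14 to 29 in CD45RBlo and 69 to 75 in naive libraries. Gm37010, within Cd48, had 106 to 158 counts in CD45RBhi, 92 to 149 in CD45RBlo and 57 to 74 in naive libraries. These are raw counts and were not scaled.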
